A study of Homo sapiens with 12 samples.

Results

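Box C/D small nucleolar RNAs (snoRNAs) are the short RNAs whose human genes carry symbols that begin with SNORD. The members described here are the SNORD genes with at least 120 counts summed over the 12 RNA-seq libraries of the series, 46 of the 277 SNORD genes in a table of 60483 genes. The other SNORD genes were 160 with 0 counts and 71 with 1 to 119 counts. The members nearest to the limit were SNORD93 with 133, SNORD92 with 136 and SNORD9 with 142 counts, and those just under it were SNORD116-2 with 119, SNORD116-24 with 115 and SNORD73B with 109 counts. All 46 members also passed the filter on low counts and were tested.

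The series measured total RNA of HUDEP-2 cells, an immortalised line of erythroid progenitors made from human umbilical cord blood, with and without a knockout of MBD2, a protein that binds methylated DNA and recruits the NuRD chromatin-remodelling complex. There were 4 groups of 3 libraries. They were MBD2 knockout cells after erythroid differentiation, control cells after differentiation, MBD2 knockout cells before differentiation and control cells before differentiation. The control cells had received a scrambled guide RNA and are labelled wild type. Cells before differentiation grew in SFEM with SCF, EPO, DEX and DOX and are labelled early basophilic erythroblasts. Cells after differentiation had grown in IMDM with EPO, DOX, insulin, heparin, holo-transferrin and human AB serum and are labelled late basophilic erythroblasts. EPO and DOX were thus present in every group, and the time in the second medium is 3 days in one label and 5 days in another. The labels do not say whether the knockout is a clone or a pool, nor whether replicates came from separate cultures, so p-values measure the spread between these libraries, which may be technical.

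Most box C/D snoRNAs base-pair with ribosomal RNA and guide the methylation of the 2′-hydroxyl of a chosen ribose, and a few pair with the spliceosomal U6 RNA or act in the cleavage of the ribosomal precursor. Their ends pair into a stem flanked by the short boxes C and D, which bind the methyltransferase fibrillarin (FBL) with NOP56, NOP58 and SNU13. Most human members lie in introns of host genes, many of them genes for ribosomal proteins or for noncoding RNAs, and are cut out of the spliced intron. Red cell precursors make many ribosomes early and wind this production down as they mature.

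Members whose values carry the results are printed here from 5′ to 3′ as the DNA letters of their GENCODE release 29 transcripts on hg38. Capitals mark the letters TGATGA of box C near the 5′ end and CTGA of box D near the 3′ end. SNORD12C (chr20:49278940-49279028, plus strand) and SNORD12B (chr20:49280319-49280409, plus strand) lie in the same host gene, ZFAS1, and were 73.6% identical. SNORD101 (chr6:132815307-132815379, plus strand) and SNORD100 (chr6:132816802-132816877, plus strand) share the host RPS12. SNORD17 (chr20:17962710-17962946, minus strand) held most of the counts, and SNORD104 (chr17:64146083-64146152, plus strand) and SNORD14E (chr11:123058077-123058161, minus strand) rose with differentiation in control cells.
SNORD12C: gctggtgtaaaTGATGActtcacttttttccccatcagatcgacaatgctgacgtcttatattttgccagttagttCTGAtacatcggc
SNORD12B: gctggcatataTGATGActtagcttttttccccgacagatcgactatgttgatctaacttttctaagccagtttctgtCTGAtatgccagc
SNORD101: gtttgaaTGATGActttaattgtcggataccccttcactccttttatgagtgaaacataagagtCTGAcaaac
SNORD100: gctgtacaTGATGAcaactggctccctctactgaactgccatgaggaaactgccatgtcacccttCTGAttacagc
SNORD17: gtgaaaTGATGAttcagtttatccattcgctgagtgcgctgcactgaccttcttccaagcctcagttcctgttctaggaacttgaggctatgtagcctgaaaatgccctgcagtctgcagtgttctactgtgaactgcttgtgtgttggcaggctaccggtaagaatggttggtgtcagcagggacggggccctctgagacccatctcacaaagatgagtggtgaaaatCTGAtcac
SNORD104: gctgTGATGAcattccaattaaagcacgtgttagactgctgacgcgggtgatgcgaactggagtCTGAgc
SNORD14E: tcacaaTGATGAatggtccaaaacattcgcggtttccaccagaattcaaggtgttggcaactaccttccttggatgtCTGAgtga

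Some members are copies of each other, which limits what a count says about a single copy. SNORD116-17 (chr15:25083588-25083679, plus strand) and SNORD116-19 (chr15:25086527-25086618, plus strand) have the same letters, while SNORD116-18 (chr15:25085385-25085476, plus strand) and SNORD116-13 (chr15:25079058-25079149, plus strand) were 98.9% and 87.0% identical to SNORD116-17. Identity between the 8 SNORD116 members ran between 77.9% and 100%, and between the 4 U3 members between 99.1% and 100%. The 217-base U3 transcript of SNORD3B-2 has the CTGA letters in its last 25 bases but not TGATGA in the first 25.
SNORD116-17: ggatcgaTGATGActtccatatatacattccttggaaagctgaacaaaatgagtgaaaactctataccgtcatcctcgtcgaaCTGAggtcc
SNORD116-19: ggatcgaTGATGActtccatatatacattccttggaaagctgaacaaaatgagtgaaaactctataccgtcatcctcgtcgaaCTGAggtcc
SNORD116-18: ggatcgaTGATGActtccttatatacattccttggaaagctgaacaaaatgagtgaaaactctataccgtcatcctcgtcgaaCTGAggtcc
SNORD116-13: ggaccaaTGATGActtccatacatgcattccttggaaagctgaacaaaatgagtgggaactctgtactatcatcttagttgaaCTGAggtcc
SNORD3B-2: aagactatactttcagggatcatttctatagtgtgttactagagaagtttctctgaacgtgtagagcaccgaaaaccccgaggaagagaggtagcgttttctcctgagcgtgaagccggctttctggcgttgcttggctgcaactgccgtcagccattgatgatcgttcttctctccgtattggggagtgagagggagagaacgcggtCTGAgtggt

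The letters TGATGA stood within the first 25 bases of 35 of 46 members (76.1%), and CTGA within the last 25 bases of all 46 (100%). Over all 278 SNORD genes of release 29 the shares were 69.4% and 96.4%. In the 147 genes of the other large class, the box H/ACA snoRNAs (SNORA), they were 0.68% and 12.2%, and on the opposite strand of the members 0 and 15.2%. Both motifs were found in 35 of 46 members (76.1%), and the 11 without the TGATGA letters in this window include the 4 U3 genes.

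MBD2 itself checked the genotype labels. It stood at 16.8, 16.1 and 14.6 CPM (counts scaled to a common library size after TMM scaling) in knockout cells after differentiation, against 61.4, 59.1 and 58.2 CPM in control cells after differentiation. Before differentiation it stood at 22.7, 19.8 and 24.5 CPM in knockout cells, against 78.7, 77.7 and 75.3 CPM in control cells. Knockout and control libraries did not overlap at either stage, and every library matched the genotype of its label. Libraries held between 7667997 and 14047498 counts. All 12 erythroid markers were detected, with summed levels of 20782 to 32353 CPM in knockout cells after, 10387 to 13029 in control cells after, 8859 to 14464 in knockout cells before and 8342 to 13175 in control cells before differentiation. The libraries were depleted of globin RNA and these sums include HBB and HBA2, so they depend in part on what the depletion left. Of 8 mast cell and basophil markers 5 passed the filter, and their sums were 10.7 to 14.5 CPM in knockout cells after, 46.1 to 51.7 in control cells after, 39.8 to 49.0 in knockout cells before and 123 to 144 in control cells before differentiation, with CLC at 0 in both knockout groups and FCER1A at 0 in control cells before differentiation. Of 9 neutrophil and monocyte markers 4 passed, with sums of 3.44 to 4.78 CPM in knockout cells after, 3.05 to 4.22 in control cells after, 17.5 to 22 in knockout cells before and 6.66 to 8.19 in control cells before differentiation, and with S100A8 and S100A9 at 0 in all groups but control cells after differentiation. No lymphoid, stromal or megakaryocyte marker passed. The part of these marker differences in the snoRNA results below was not tested, and in bulk RNA fewer cells of a type and less RNA per cell cannot be told apart.

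The members took 0.0776, 0.0839 and 0.0680% of all counts in knockout cells after differentiation, 0.0966, 0.112 and 0.0929% in control cells after, 0.0730, 0.0597 and 0.0574% in knockout cells before and 0.0928, 0.0836 and 0.0586% in control cells before differentiation. After differentiation every control library lay above every knockout library, while before it the third control library lay inside the knockout range. Most of these counts fell on SNORD17. The other members took 0.0235, 0.0263 and 0.0209% in knockout cells after differentiation and 0.0258, 0.0307 and 0.0230% in control cells after, which overlapped. None of these shares is TMM-scaled. The TMM factors after differentiation were 0.883, 0.915 and 0.931 in knockout and 1.03, 1.01 and 1.01 in control cells, so that scaling brings the 2 groups closer. Control before replicate 3 was the lowest of its group in 39 of 46 members, and control before replicate 1 was the highest in 38. Knockout after replicate 3 was the lowest of its group in 32. Other short RNAs moved between the same libraries: snRNA genes took 1.89 to 2.68% of counts in knockout cells after, 1.64 to 2.58% in control cells after, 1.44 to 1.92% in knockout cells before and 1.30 to 2.18% in control cells before differentiation, with control before replicate 3 lowest of all 12. What sets these library differences was not tested, and most members shared them, though not all.

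Among the members, most counts fell on a single gene. SNORD17, a guide of 28S ribosomal RNA methylation in an intron of SNX5, held 75025 of the 105128 counts of the members (71.4%), and the median member held 311. Per length, its level averaged 2408 CPM per kilobase over the 12 libraries. The next were SNORD104 with 271, SNORD101 with 226, SNORD15B with 214 and SNORD100 with 178 CPM per kilobase, and the lowest was the U3 gene SNORD3B-1 with 2.73 CPM per kilobase of its 758-base gene model. The member models were 68 to 791 bases long with a median of 91, and that of SNORD17 has 237 bases. Genes under exons of other genes and near-identical copies such as the U3 genes are not or only partly counted, so this order covers only what the counting can see. Whether shorter and longer RNAs entered the libraries equally well was not tested. The counting covered any read pair that overlaps the gene, so that pairs from unspliced host RNA that cross a snoRNA count for it as well. That share was not measured.

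**Figure D1:**
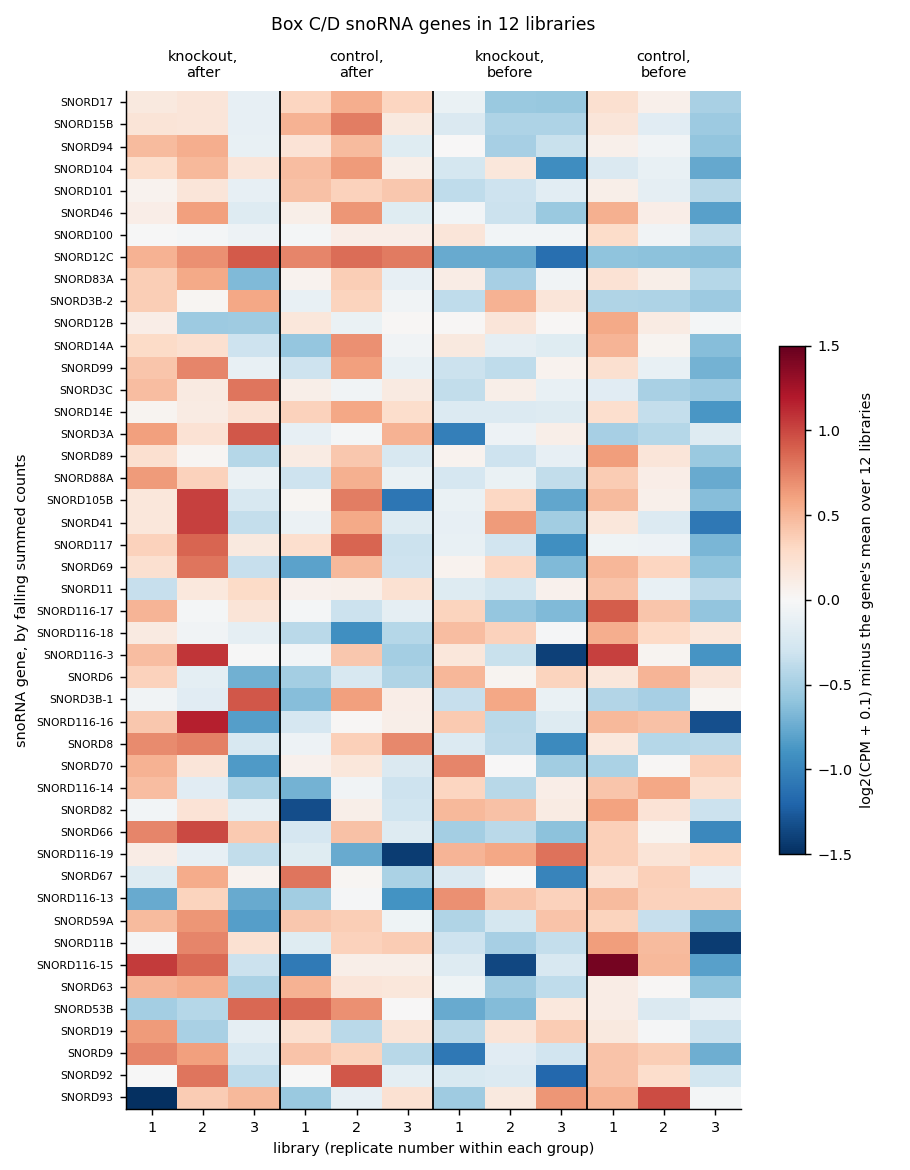
Levels of the 46 members in the 12 libraries, as log2 CPM minus each member's mean over all libraries; columns are the libraries by group, from knockout after to control before differentiation, and rows are members in order of their summed counts. SNORD12C is high in all 6 libraries after differentiation, and control before replicate 3 is the lowest of its group in 39 of 46 members.

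The first question was what differentiation did to the class. In knockout cells, 13 of 46 members passed the test (28.3%), of which 12 were higher and 1 lower after differentiation, whereas 55.7 percent of all 17175 genes tested passed (two-sided quasi-likelihood test of edgeR, p-values adjusted by Benjamini-Hochberg across those genes, threshold 0.05). In control cells 12 of 46 passed (26.1%), with 7 higher and 5 lower, against a background of 43.8 percent. By direction, 26.1% of members were higher in knockout cells beside 28.0 percent of all genes, and 15.2% in control cells beside 21.5 percent. The lower calls were 2.17% of members beside 27.7 percent of all genes in knockout cells, and 10.9% beside 22.3 percent in control cells. The members' shares were thus below those of all genes in each direction and genotype, and their standard errors were wider, with medians of 0.32 in knockout cells and 0.31 in control cells on the log2 scale, beside 0.15 and 0.14 for all genes. The median log2 change of the members was 0.45 in knockout cells and 0.12 in control cells, beside 0.03 and 0.01 for all genes.

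**Figure D2:**
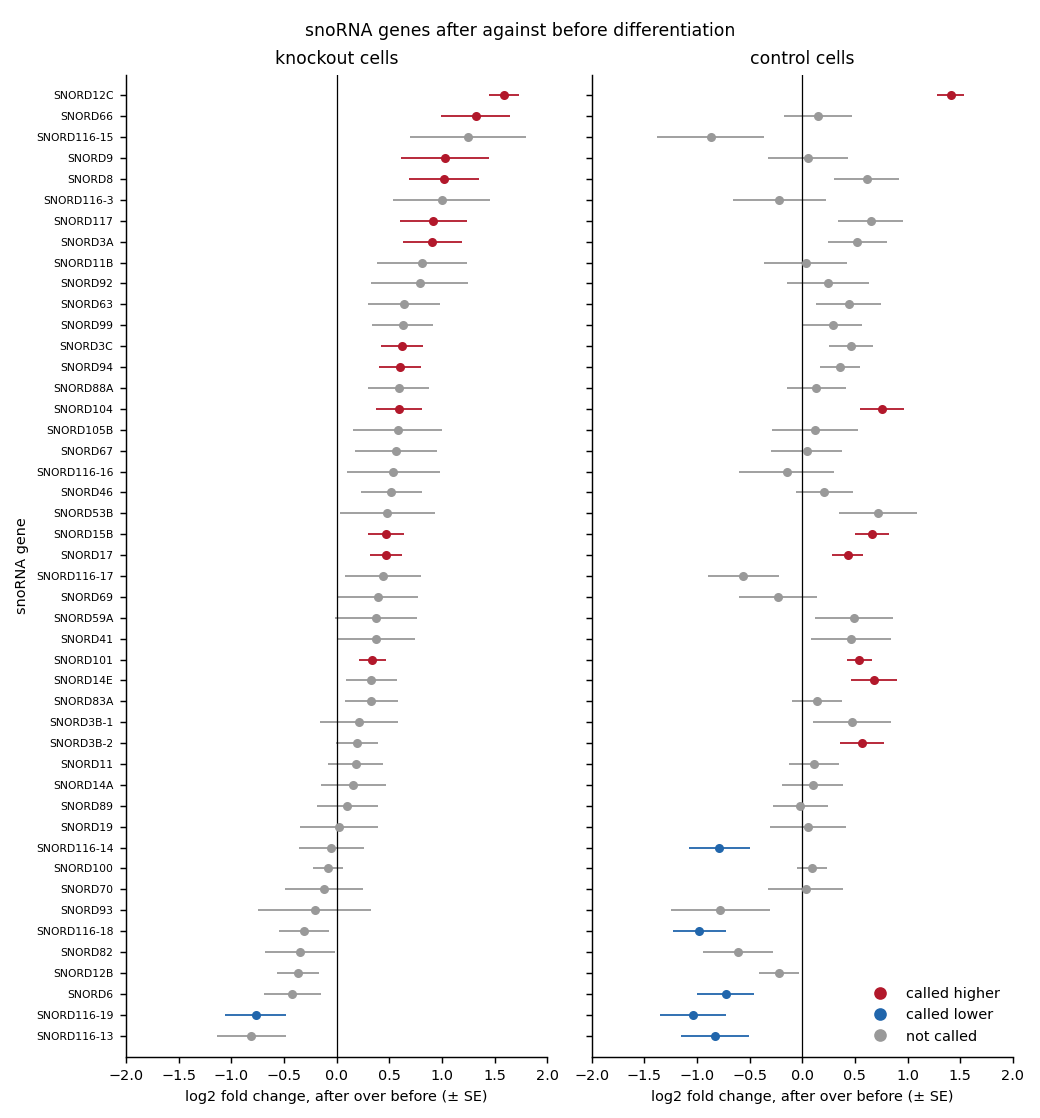
Change of each member with differentiation, in knockout cells on the left and control cells on the right. Points are the log2 of after over before, with bars of 1 standard error. Red points were called higher and blue points lower by the edgeR test at an adjusted p under 0.05. Grey points were not called. SNORD12C stands farthest to the right among called members in both panels, at 1.59 and 1.41, and the called members to the left of 0 are SNORD116 genes and SNORD6.

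The calls in knockout and control cells shared 5 higher members, SNORD17, SNORD15B, SNORD104, SNORD101 and SNORD12C, which are 41.7% of the higher calls in knockout cells and 71.4% of those in control cells. They shared 1 lower member, SNORD116-19, which is the only lower call (100%) in knockout cells and 20.0% of those in control cells. The change with differentiation did not pass a test of the difference between the genotypes for any member (edgeR, 0 of 46, 2 at an unadjusted p under 0.05, beside 6.28 percent of all genes called higher and 6.68 percent lower). Calls made in knockout cells alone, or in control cells alone, are therefore not shown to differ between the genotypes. With each of the 12 libraries left out in turn and under every other setting tried, 2 of the 13 calls in knockout cells stood throughout (SNORD12C and SNORD66), and 5 of the 12 in control cells (SNORD15B, SNORD104, SNORD101, SNORD12C and SNORD116-18). Losses are given below mainly for libraries left out, and many of these calls were also lost with DESeq2 or with library sizes as the only scaling.

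SNORD12C showed the clearest change. It stood at 13.6, 15.3 and 17.9 CPM in knockout cells after differentiation, against 5.56, 5.57 and 4.25 CPM in knockout cells before. In control cells it stood at 15.8, 17 and 16.3 CPM after differentiation, against 6.19, 6.16 and 6.09 CPM before. All 6 libraries after differentiation lay above all 6 before, with log2 changes of 1.59 ± 0.14 (SE, 3 libraries a group, edgeR adjusted p = 5.46e-08) in knockout cells and 1.41 ± 0.13 (adjusted p = 2.29e-07) in control cells.

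SNORD12B, in the same host transcript, did not follow. It stood at 6.80, 4.30 and 4.36 CPM in knockout cells after differentiation, against 6.42, 7.18 and 6.42 CPM before, and at 7.13, 5.89 and 6.42 CPM in control cells after differentiation, against 9.47, 6.91 and 6.19 CPM before. The groups overlapped in both genotypes, and its log2 changes of -0.37 ± 0.2 in knockout cells (SE, edgeR adjusted p = 0.136) and -0.22 ± 0.19 in control cells (adjusted p = 0.374) did not pass. The host ZFAS1, a noncoding RNA, rose in both genotypes, by 0.52 ± 0.07 in knockout cells (edgeR adjusted p = 1.19e-05) and 0.63 ± 0.07 in control cells (adjusted p = 2.02e-06) on the log2 scale. Both genotypes thus had a host that rose, a member that rose further and a member that did not pass.

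The ratio of the 2 members to each other cancels what a library does to both. SNORD12C over SNORD12B was 2.00, 3.55 and 4.10 in knockout cells after differentiation, against 0.865, 0.775 and 0.662 before, and 2.22, 2.89 and 2.54 in control cells after, against 0.653, 0.892 and 0.985 before. SNORD12C was thus the larger of the pair in all 6 libraries after differentiation and the smaller in all 6 before. Another snoRNA gene of that family, SNORD12, had 0 counts, and all 90 of its bases lie under exons of other genes, where the counter assigns no gene.

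**Figure D3:**
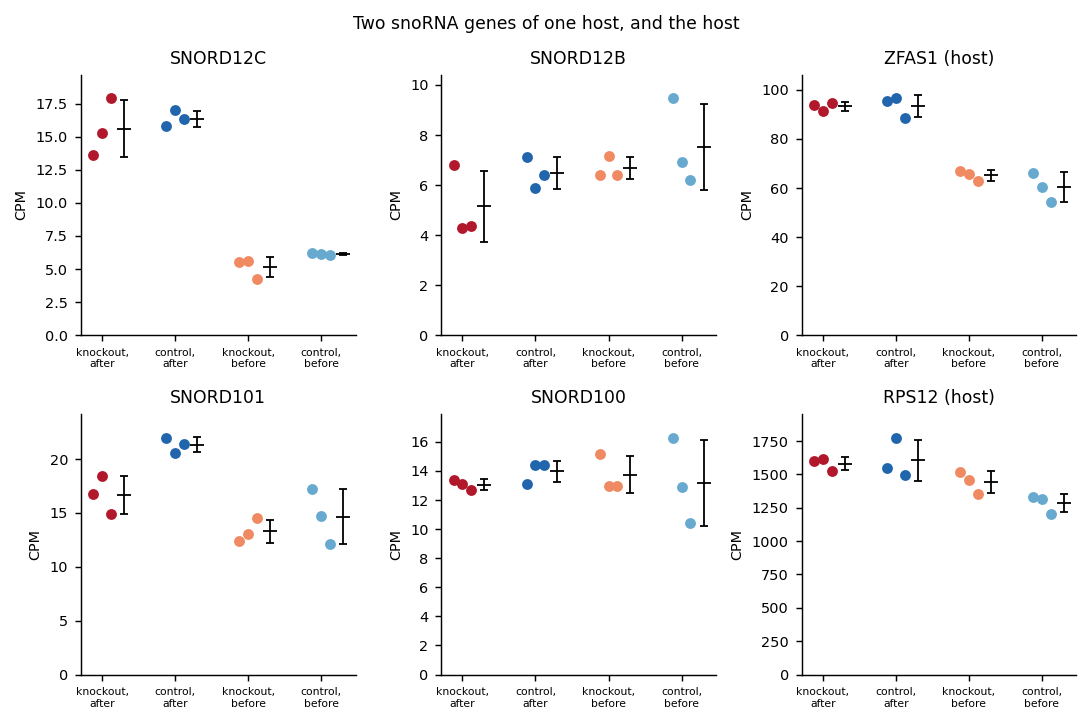
CPM in each library (points) with the mean and SD of each group of 3, for SNORD12C, SNORD12B and their host ZFAS1 in the upper row and for SNORD101, SNORD100 and their host RPS12 in the lower row; groups run from knockout after to control before differentiation. SNORD12C after differentiation lies at 13.6 to 17.9 CPM and before it at 4.25 to 6.19, while SNORD12B overlaps between the stages.

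SNORD101, a snoRNA with no known target, and SNORD100, a guide of 18S methylation, share the host RPS12, a ribosomal protein gene. SNORD101 stood at 16.8, 18.4 and 14.9 CPM in knockout cells after differentiation, against 12.4, 13 and 14.5 CPM before, and at 22, 20.6 and 21.4 CPM in control cells after, against 17.2, 14.7 and 12.1 CPM before. The stages did not overlap in either genotype, and it rose by 0.34 ± 0.13 in knockout cells (edgeR adjusted p = 0.0364) and 0.54 ± 0.12 in control cells (adjusted p = 0.00178) on the log2 scale. The call in knockout cells was lost without knockout before replicate 1 or 2 or knockout after replicate 1 or 2 (log2 change 0.26 to 0.33), with the deposited library sizes as the only scaling, with no filter, with the groups compared alone and with DESeq2.

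SNORD100 stood at 13.4, 13.1 and 12.7 CPM in knockout cells after differentiation, against 15.2, 13 and 13 CPM before, and at 13.1, 14.4 and 14.4 CPM in control cells after, against 16.3, 12.9 and 10.4 CPM before. Its stages overlapped, and its log2 changes of -0.08 in knockout cells (edgeR adjusted p = 0.663) and 0.09 in control cells (adjusted p = 0.656) did not pass. The ratio of SNORD101 to SNORD100 was 1.25, 1.4 and 1.18 in knockout cells after differentiation, against 0.815, 1.00 and 1.11 before, and 1.68, 1.43 and 1.48 in control cells after, against 1.05, 1.14 and 1.17 before. It was higher after differentiation in both genotypes with no overlap, by less than the SNORD12 ratio.

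SNORD17 rose modestly in both genotypes. It stood at 615, 631 and 508 CPM in knockout cells after differentiation, against 517, 376 and 374 CPM before, and at 692, 806 and 695 CPM in control cells after, against 655, 583 and 395 CPM before. The stages overlapped in knockout cells, by a single library, and not in control cells. The log2 changes were 0.47 ± 0.15 in knockout cells (edgeR adjusted p = 0.0164) and 0.43 ± 0.15 in control cells (adjusted p = 0.0336). The call in knockout cells was lost without knockout before replicate 2 or 3 or knockout after replicate 1 or 2 (0.39 to 0.43), and that in control cells without control before replicate 2 or 3 or control after replicate 1 or 2 (0.23 to 0.47). Both calls were also lost with DESeq2, and that in knockout cells with the deposited library sizes as the only scaling.

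SNORD104 and SNORD15B, which guide methylation of 28S ribosomal RNA, also rose in both genotypes. SNORD104 stood at 21.7, 25.4 and 20.5 CPM in knockout cells after differentiation, against 15.1, 20.4 and 9.41 CPM before, and at 25, 28.3 and 19.2 CPM in control cells after, against 15.5, 16.7 and 10.6 CPM before. SNORD15B stood at 34.5, 34.2 and 27.7 CPM in knockout cells after differentiation, against 26.0, 21.8 and 21.8 CPM before, and at 43.4, 51.4 and 33.5 CPM in control cells after, against 34.1, 26.8 and 20.6 CPM before. Only the SNORD15B libraries of control cells overlapped between the stages. SNORD104 rose by 0.59 (knockout, edgeR adjusted p = 0.0301) and 0.76 (control, adjusted p = 0.00851), and SNORD15B by 0.47 (knockout, adjusted p = 0.0269) and 0.66 (control, adjusted p = 0.00312) on the log2 scale. In knockout cells the SNORD104 call was lost without knockout before replicate 1 or 3 or knockout after replicate 1 or 2 (0.36 to 0.62), and the SNORD15B call without knockout before replicate 2 or 3 or knockout after replicate 1 or 2 (0.42 to 0.43).

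SNORD94, SNORD8 and SNORD9, which are guides of U6 RNA methylation, were among the 12 members called higher in knockout cells (26.1% of members, beside 28.0 percent of all genes). SNORD94 stood at 30.2, 31.7 and 20.2 CPM in knockout cells after differentiation, against 21.8, 15.4 and 17.3 CPM before, and at 25.2, 30.2 and 19.1 CPM in control cells after, against 22.9, 20.9 and 14.4 CPM before. The stages overlapped in both genotypes through the replicate 3 library after differentiation, and the log2 change was 0.60 in knockout cells (edgeR adjusted p = 0.0173) and 0.36 in control cells (adjusted p = 0.145). SNORD8 and SNORD9 lie in CHD8, a chromatin remodeller gene, and were near 1 CPM. SNORD8 stood at 2.81, 2.91 and 1.41 CPM in knockout cells after differentiation, against 1.44, 1.26 and 0.814 CPM before, with a log2 change of 1.02 (edgeR adjusted p = 0.0155). In control cells SNORD8 stood at 1.59, 2.18 and 2.84 CPM after differentiation, against 1.88, 1.22 and 1.24 CPM before, and its log2 change of 0.61 did not pass (edgeR adjusted p = 0.127). SNORD9 stood at 1.76, 1.61 and 0.844 CPM in knockout cells after differentiation, against 0.433, 0.898 and 0.814 CPM before, with a log2 change of 1.03 (edgeR adjusted p = 0.0483). In control cells SNORD9 stood at 1.41, 1.31 and 0.737 CPM after differentiation, against 1.41, 1.35 and 0.571 CPM before, with a log2 change of 0.05 (edgeR adjusted p = 0.933). In knockout cells both overlapped between the stages through knockout after replicate 3. All 3 calls were lost without knockout before replicate 3, knockout after replicate 1 or knockout after replicate 2. The SNORD94 call was also lost without knockout before replicate 2, and the SNORD9 call also without knockout before replicate 1 or any of 4 control libraries, with values of 0.47 to 0.56, 0.84 to 0.90 and 0.75 to 1.15 for SNORD94, SNORD8 and SNORD9. The remaining U6 guide among the members, SNORD67, was not called in any comparison, with log2 changes of 0.56 in knockout cells and 0.04 in control cells (edgeR adjusted p = 0.232 and 0.942).

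SNORD66, a guide of 18S methylation, had the second steepest rise in knockout cells among called members. It stood at 2.70, 3.23 and 2.11 CPM in knockout cells after differentiation, against 1.08, 1.17 and 0.995 CPM before, and at 1.31, 2.18 and 1.37 CPM in control cells after, against 2.06, 1.63 and 0.762 CPM before. The stages did not overlap in knockout cells and overlapped in control cells. The log2 changes were 1.32 ± 0.33 in knockout cells (edgeR adjusted p = 0.00270) and 0.15 in control cells (adjusted p = 0.741). The difference between these changes, 1.17, did not pass (edgeR adjusted p = 0.112), and the host could not be told from the coordinates. SNORD117, with no known target, rose by 0.92 in knockout cells, with 3.40, 4.95 and 2.95 CPM after differentiation against 2.45, 2.16 and 1.36 CPM before (edgeR adjusted p = 0.0230). That call was lost without knockout before replicate 3 or knockout after replicate 2 (0.66 and 0.72), with library sizes as the only scaling and with DESeq2.

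U3 is the abundant box C/D snoRNA that takes part in the cleavage steps that release 18S ribosomal RNA, and it is transcribed from its own genes. The 4 U3 members summed to 24.1, 19.2 and 30.8 CPM in knockout cells after differentiation, 16.8, 21.3 and 20.0 CPM in control cells after, 12.9, 23.1 and 19.1 CPM in knockout cells before and 13.8, 13.1 and 13.7 CPM in control cells before. In control cells the stages did not overlap, and in knockout cells they did. SNORD3B-2 rose in control cells by 0.57 ± 0.21 on the log2 scale, with 7.88, 10.8 and 8.21 CPM after differentiation against 6.19, 6.16 and 5.81 CPM before (edgeR adjusted p = 0.0365). SNORD3A rose in knockout cells by 0.91, with 5.39, 4.09 and 6.75 CPM after differentiation against 1.66, 3.32 and 3.71 CPM before (edgeR adjusted p = 0.0102). SNORD3C rose in knockout cells by 0.62, with 5.86, 4.63 and 7.45 CPM after differentiation against 3.25, 4.49 and 3.89 CPM before (edgeR adjusted p = 0.0151). None of these 3 pairs of groups overlapped between the stages. The SNORD3B-2 call was lost without any single control library before differentiation or without control after replicate 2 (0.40 to 0.59), and the SNORD3A and SNORD3C calls without knockout before replicate 1 or knockout after replicate 3 (0.61 to 0.73 and 0.44 to 0.50). The SNORD3B-2 and SNORD3C calls were also lost with library sizes as the only scaling and with DESeq2. SNORD3B-1 was not called. The near-identical copies make the split between U3 genes uncertain. In each model 218 bases lie under exons of other genes, close to the 217 bases of the U3 transcript. The counter left out pairs that touch exons of several genes. Pairs touching these 218 bases were thus not counted, and the values above come from the rest of the models. Whether the 218 bases are those of the U3 transcript was not checked. If they are, the counts do not measure the U3 RNA.

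U14 takes part in 18S processing and also guides methylation. SNORD14E, in the gene of the chaperone HSPA8, stood at 3.87, 4.09 and 4.36 CPM in knockout cells after differentiation, against 3.25, 3.23 and 3.26 CPM before, and at 4.78, 5.67 and 4.53 CPM in control cells after, against 4.50, 2.91 and 2.00 CPM before. The stages did not overlap in either genotype. Its log2 change was 0.33 in knockout cells (edgeR adjusted p = 0.245) and 0.68 in control cells (adjusted p = 0.0184), and the call in control cells was lost without control before replicate 2 or 3 or control after replicate 2 (0.47 to 0.62). DESeq2 lost that call as well. SNORD14A, in the ribosomal protein gene RPS13, stood at 6.45, 6.24 and 4.22 CPM in knockout cells after differentiation, against 5.85, 4.76 and 4.61 CPM before, and at 3.47, 8.50 and 5.05 CPM in control cells after, against 7.50, 5.42 and 3.33 CPM before. Its stages overlapped in both genotypes and it was not called. The other U14 genes SNORD14B, SNORD14C and SNORD14D, and the processing snoRNA genes SNORD118 (U8), SNORD13 (U13) and SNORD22 (U22), had 0 counts with all of their bases under exons of other genes, so that these data do not measure them. Of the SNORD genes with 0 counts, 85 of 160 (53.1%) lay fully or partly under such exons, as did 14 of 71 (19.7%) with 1 to 119 counts and 5 of 46 members (10.9%), namely the 4 U3 genes and SNORD89 by 1 base.

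The SNORD116 genes are the imprinted repeat of the Prader-Willi locus on chromosome 15, hosted by the long noncoding RNA SNHG14 and with no known target in ribosomal RNA. The 8 members summed to 16.8, 18 and 10.7 CPM in knockout cells after differentiation, 10.1, 11.5 and 9.89 CPM in control cells after, 16.7, 11.9 and 11.9 CPM in knockout cells before and 22, 16.7 and 10.9 CPM in control cells before. The stages overlapped in both genotypes, in control cells through control before replicate 3. In control cells all 8 log2 changes with differentiation were negative (median -0.81), under every scaling tried, and 4 were called, SNORD116-18 at -0.98, SNORD116-19 at -1.04, SNORD116-14 at -0.79 and SNORD116-13 at -0.83 (edgeR adjusted p = 0.00377, 0.0117, 0.0368 and 0.0472). In knockout cells 4 were positive and 4 negative, and SNORD116-19 was called at -0.77 (edgeR adjusted p = 0.0328). The 8 share a host and similar letters, so their signs are not separate observations.

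SNORD116-18 stood at 2.23, 1.94 and 1.83 CPM in knockout cells after differentiation, 1.5, 1.02 and 1.47 CPM in control cells after, 2.81, 2.60 and 1.99 CPM in knockout cells before and 3.00, 2.51 and 2.29 CPM in control cells before. Its control libraries did not overlap between the stages, and its call was the only SNORD116 call that stood with every library left out. SNORD116-19 stood at 1.41, 1.18 and 0.984 CPM in knockout cells after differentiation, 1.13, 0.727 and 0.421 CPM in control cells after, 1.88, 1.98 and 2.35 CPM in knockout cells before and 1.69, 1.49 and 1.62 CPM in control cells before. Neither genotype overlapped between the stages. SNORD116-17, with the same letters, was not called in either genotype (edgeR adjusted p = 0.320 and 0.197, log2 change 0.44 in knockout cells and -0.56 in control cells), so that the split between copies is uncertain. The SNORD116-19 call was lost in control cells without control after replicate 3 (-0.81), and in knockout cells without knockout before replicate 3 or knockout after replicate 2 or 3 (-0.76 to -0.67). The SNORD116-14 call was lost without control before replicate 1 or 2 or control after replicate 1 or 3 (-0.80 to -0.63), and the SNORD116-13 call without any of 8 libraries (-0.86 to -0.65). Each call of SNORD116-19, SNORD116-14 and SNORD116-13 was also lost with DESeq2. Each but that of SNORD116-19 in control cells was lost with no filter, and that of SNORD116-13 also with upper-quartile factors. SNHG14 stood at 39.4, 36.7 and 36.0 CPM in knockout cells after differentiation, 39.3, 36.4 and 37.8 CPM in control cells after, 42.9, 36.6 and 40.1 CPM in knockout cells before and 43.4, 40.1 and 47.3 CPM in control cells before, and no SNORD116 member was called relative to it.

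**Figure D4:**
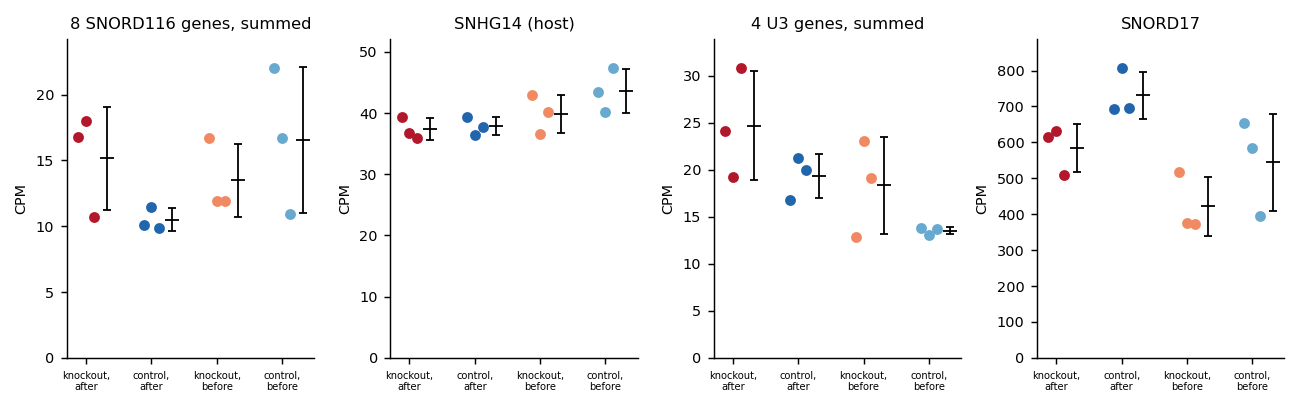
Level per library (points) with the mean and SD of each group of 3, for the summed SNORD116 members, their host SNHG14, the summed U3 members and SNORD17, in CPM; groups run from knockout after to control before differentiation. The U3 sum in control cells is 16.8 to 21.3 CPM after differentiation and 13.1 to 13.8 before, and the SNORD116 sum in control cells after differentiation is 9.89 to 11.5 CPM. The U3 sums leave out pairs that touch exons of other genes and may not measure the U3 transcript.

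The remaining lower call was SNORD6, in TAF1D, a gene of an RNA polymerase I factor. It stood at 1.31, 1.6 and 1.37 CPM in control cells after differentiation, against 2.16, 2.78 and 2.19 CPM before, without overlap, and at 2.46, 1.72 and 1.12 CPM in knockout cells after, against 2.74, 1.98 and 2.44 CPM before. It fell by 0.73 on the log2 scale in control cells (edgeR adjusted p = 0.0334), a call that was lost without control before replicate 2 or any control library after differentiation (-0.84 to -0.59). The SNORD6 call was also lost with no filter and with DESeq2. Among the 8 members with the largest counts, SNORD46, a 28S guide, was not called in any comparison. It stood at 15.2, 21.8 and 12.4 CPM in knockout cells after differentiation, 15, 22.5 and 12.5 CPM in control cells after, 13.8, 11.3 and 9.59 CPM in knockout cells before and 20.6, 15.2 and 8.00 CPM in control cells before, and its groups overlapped in each of the 4 comparisons.

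The second question was what the loss of MBD2 did to the class, and few members passed. After differentiation 1 of 46 members was called (2.17%), SNORD101, which was lower in knockout cells, whereas 33.1 percent of all genes were called, 16.8 percent higher and 16.3 percent lower. Before differentiation 1 of 46 was called (2.17%), SNORD3B-2, which was higher in knockout cells, whereas 17.2 percent of all genes were called, 9.07 percent higher and 8.15 percent lower. At an unadjusted p under 0.05 there were 5 and 3 members. The median log2 difference of the members was 0.14 after and -0.15 before differentiation, beside -0.01 and -0.00 for all genes, and with the deposited library sizes as the only scaling the first of these was -0.02 and that of all genes -0.17. A p that misses the threshold does not show that the levels are alike: the median standard error of a member was 0.31 after and 0.29 before differentiation on the log2 scale.

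SNORD101 stood at 16.8, 18.4 and 14.9 CPM in knockout cells after differentiation, against 22, 20.6 and 21.4 CPM in control cells, without overlap. The log2 difference was -0.35 ± 0.12 (SE, edgeR adjusted p = 0.0422). It was lost without control before replicate 2, any control library after differentiation or knockout after replicate 1 or 3 (-0.37 to -0.28), and with DESeq2. SNORD3B-2 stood at 6.50, 12.3 and 9.68 CPM in knockout cells before differentiation, against 6.19, 6.16 and 5.81 CPM in control cells, and the log2 difference was 0.63 ± 0.21 (SE, edgeR adjusted p = 0.0478). The groups did not overlap, although knockout before replicate 1 lay close to the control libraries, and the call was lost without any of 8 libraries (0.40 to 0.64). It was also lost with library sizes as the only scaling and with the groups compared alone.

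SNORD17 stood at 508 to 631 CPM in knockout cells after differentiation and at 692 to 806 CPM in control cells, without overlap, and the difference of -0.32 ± 0.15 on the log2 scale did not pass (edgeR adjusted p = 0.124). Before differentiation it stood at 374 to 517 CPM in knockout cells and 395 to 655 CPM in control cells, with a difference of -0.37 ± 0.15 (edgeR adjusted p = 0.123). SNORD15B stood at 27.7 to 34.5 CPM in knockout cells after differentiation and 33.5 to 51.4 CPM in control cells, with a difference of -0.42 (edgeR adjusted p = 0.0617). The 8 SNORD116 members all had positive differences after differentiation, between 0.15 and 0.92, or 7 of 8 with library sizes as the only scaling, and none was called. The 4 U3 members, whose counts may come from outside the U3 transcript, all had positive differences at both stages. With library sizes as the only scaling it was 3 of 4 after differentiation.

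The third question was whether a member and its host moved together. A clear host, a gene on the same strand that contains the member, was found for 41 of the 46 members, in 27 genes. The exceptions were the 4 U3 genes and SNORD66. A member was set against its host by the log2 ratio of their CPM. The limma test ran over all 960 tested genes, of any type or length, nested in a clear host. After differentiation, 6 of 41 members were higher relative to the host and 1 lower in knockout cells (17.1%), beside 24.4 percent of all nested genes called, 16.1 percent higher and 8.23 percent lower. In control cells 4 were higher and 1 lower (12.2%), beside 7.81 percent of all nested genes higher and 5.21 percent lower. Between knockout and control cells, 0 of 41 members were called relative to the host after differentiation (limma, 3 at an unadjusted p under 0.05), beside 8.96 percent of all nested genes, 6.35 percent higher and 2.60 percent lower. Before it 0 were called (1 at an unadjusted p under 0.05), beside 3.33 percent, 1.25 percent higher and 2.08 percent lower. None was called in the difference of the changes (0 at an unadjusted p under 0.05, beside 0.625 percent, 0.417 percent higher and 0.208 percent lower).

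**Figure D5:**
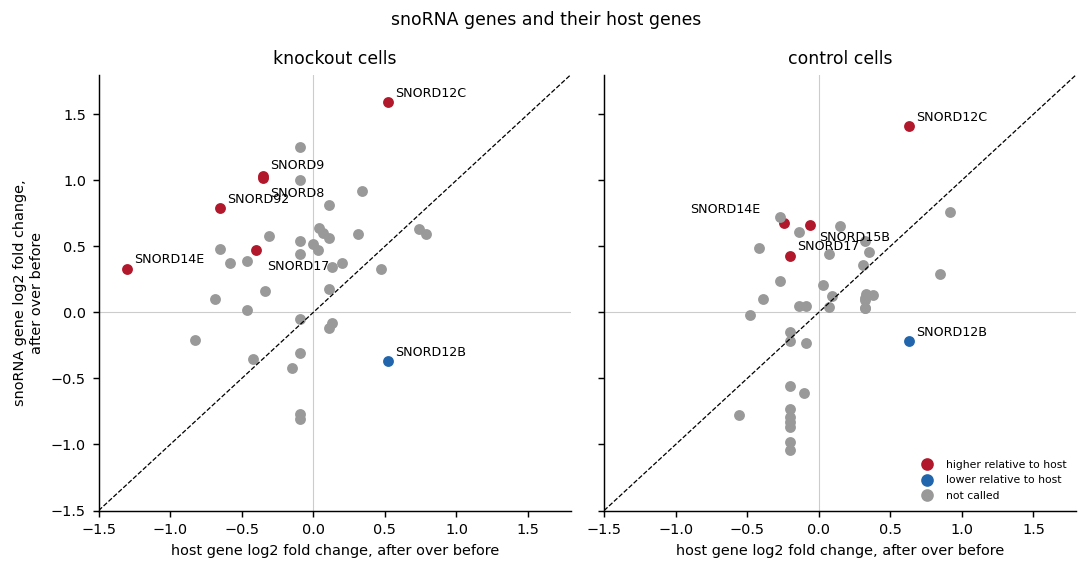
Log2 change of each member with differentiation (vertical axis) against that of its host (horizontal axis), for the 41 members with a clear host. Knockout cells are on the left and control cells on the right, and the line marks equal change. Red points were called higher and blue points lower relative to the host by the limma test. Grey points were not called. SNORD12C lies above the line and SNORD12B below it at the same host change, and SNORD14E and SNORD17 lie above it with hosts that fell.

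SNORD12C and SNORD12B separated from ZFAS1 in opposite directions. SNORD12C was 14.5, 16.7 and 18.8% of the CPM of ZFAS1 in knockout cells after differentiation, against 8.28, 8.49 and 6.77% before, and 16.6, 17.6 and 18.4% in control cells after, against 9.34, 10.2 and 11.2% before. SNORD12B was 7.25, 4.71 and 4.60% of it in knockout cells after differentiation, against 9.57, 11.0 and 10.2% before, and 7.46, 6.09 and 7.25% in control cells after, against 14.3, 11.4 and 11.4% before. No group overlapped between the stages. Relative to the host, SNORD12C was higher after differentiation by 1.05 ± 0.17 in knockout cells (limma adjusted p = 3.06e-04) and 0.75 ± 0.17 in control cells (adjusted p = 0.00969), and SNORD12B changed by -0.91 ± 0.2 in knockout cells (adjusted p = 0.00380) and -0.83 ± 0.2 in control cells (adjusted p = 0.0142) on the log2 scale. The SNORD12B call in control cells was lost without control before replicate 1 or control after replicate 2 (-0.72 and -0.74), and the other 3 stood with each library left out.

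Most members in hosts that fell were not called themselves. In knockout cells 3 members in such hosts were higher after differentiation, SNORD17, SNORD8 and SNORD9, and 10 were not called. In control cells 2 were higher, SNORD17 and SNORD14E, 6 were not called and 1, SNORD6, was lower. SNX5, a sorting nexin gene, stood at 212, 212 and 204 CPM in knockout cells after differentiation, against 282, 266 and 283 CPM before, and at 262, 271 and 244 CPM in control cells after, against 314, 295 and 281 CPM before. It fell by 0.40 in knockout cells (edgeR adjusted p = 4.57e-05) and by 0.20 in control cells (adjusted p = 0.0195) on the log2 scale. The second of these calls was lost without control before replicate 1 or 2 or control after replicate 3. SNORD17 relative to SNX5 was higher by 0.88 ± 0.19 in knockout cells (limma adjusted p = 0.00263) and 0.65 ± 0.19 in control cells (adjusted p = 0.0315). The value in control cells was lost without control before replicate 2 or 3 or any control library after differentiation (0.47 to 0.72). The CPM of SNORD17 was 249 to 297% of that of SNX5 in knockout cells after differentiation, against 132 to 183% before, and 265 to 297% in control cells after, against 141 to 209% before.

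HSPA8 stood at 1041, 1034 and 1179 CPM in knockout cells after differentiation, against 2314, 2575 and 3144 CPM before, and at 1790, 1777 and 1907 CPM in control cells after, against 2187, 2183 and 2091 CPM before. It fell by 1.30 ± 0.1 in knockout cells (edgeR adjusted p = 5.72e-09) and by 0.24 ± 0.09 in control cells (adjusted p = 0.0490, lost without any of 8 libraries, at -0.27 to -0.22). SNORD14E relative to HSPA8 was higher by 1.62 ± 0.25 in knockout cells (limma adjusted p = 2.08e-04) and 0.94 ± 0.25 in control cells (adjusted p = 0.0203), and the second was lost without control before replicate 2 or 3 or control after replicate 1 or 2 (0.70 to 0.96). The member itself was called in control cells and not in knockout cells. SNORD8 and SNORD9 were higher relative to CHD8 in knockout cells, by 1.24 and 1.16 (limma adjusted p = 0.0164 and 0.0414), and SNORD92 relative to WDR43, a ribosome biogenesis gene, by 1.27 (limma adjusted p = 0.0276). These 3 were lost without knockout before replicate 3 or knockout after replicate 2, SNORD8 and SNORD9 also without knockout after replicate 1, and SNORD9 also without 3 further libraries (0.97 to 1.1, 0.96 to 1.2 and 0.94 to 0.96 for SNORD8, SNORD9 and SNORD92).

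SNORD104 was not called relative to its host, which rose as well. SNHG25, the noncoding host of SNORD104, stood at 24.3, 23.4 and 19.5 CPM in knockout cells after differentiation, against 13.1, 16.5 and 9.41 CPM before, and at 24.5, 29.4 and 19.6 CPM in control cells after, against 15.6, 14.4 and 8.85 CPM before. It rose by 0.79 in knockout cells (edgeR adjusted p = 0.00386) and 0.92 in control cells (adjusted p = 0.00130) on the log2 scale. SNORD104 relative to it differed by -0.16 in knockout cells (limma adjusted p = 0.496) and -0.17 in control cells (adjusted p = 0.519). The spliced SNHG25 model has 278 bases, and SNORD104 was 89.4 to 123% of its CPM in the 12 libraries. SNORD15B relative to RPS3 was higher in control cells by 0.72 (limma adjusted p = 0.0319), lost without control before replicate 2 or 3 or control after replicate 1 or 2 (0.56 to 0.67), and not called in knockout cells at 0.42 (adjusted p = 0.148). Of the 27 hosts, 6 were higher and 10 lower after differentiation in knockout cells, and 9 higher and 8 lower in control cells. Of all genes, 28.0 percent were higher and 27.7 percent lower in knockout cells, and 21.5 percent were higher and 22.3 percent lower in control cells. In control cells 10 members that were not called lay in hosts that were higher, among them SNORD94 in PTCD3, SNORD100 in RPS12 and the 3 members in NOP58.

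The core proteins of the box C/D particle were measured with much smaller errors. FBL stood at 194, 217 and 225 CPM in knockout cells after differentiation, 181, 207 and 184 CPM in control cells after, 301, 390 and 306 CPM in knockout cells before and 237, 269 and 289 CPM in control cells before, and it fell with differentiation by 0.65 in knockout cells (edgeR adjusted p = 3.29e-05) and by 0.48 in control cells (adjusted p = 9.67e-04) on the log2 scale. NOP56 stood at 230, 233 and 237 CPM in knockout cells after, 256, 259 and 265 CPM in control cells after, 351, 368 and 408 CPM in knockout cells before and 310, 316 and 324 CPM in control cells before. It fell by 0.69 in knockout cells (edgeR adjusted p = 9.41e-08) and by 0.28 in control cells (adjusted p = 0.00151), and its change differed between the genotypes by -0.40 (adjusted p = 0.00616). Before differentiation, FBL and NOP56 were higher in knockout than in control cells, by 0.33 for FBL and 0.25 for NOP56 (edgeR adjusted p = 0.0303 and 0.0109). The FBL call was lost without control before replicate 1 or 2 or knockout before replicate 2 (0.20 to 0.33), and the NOP56 call without control before replicate 1 or knockout before replicate 3 (0.18 and 0.23).

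SNU13 stood at 69.2, 68.0 and 78.3 CPM in knockout cells after, 77.4, 87.5 and 82.3 CPM in control cells after, 94.3, 104 and 104 CPM in knockout cells before and 81.0, 87.8 and 95.7 CPM in control cells before. It fell in knockout cells by 0.49 (edgeR adjusted p = 5.69e-05), was not called in control cells at -0.10 (adjusted p = 0.344), and the changes differed by -0.39 (adjusted p = 0.0271), a call that was lost without any of 6 libraries (-0.38 to -0.33). NOP58, which is also the host of SNORD11, SNORD11B and SNORD70, went the other way in control cells. It stood at 277, 273 and 276 CPM in knockout cells after, 317, 329 and 336 CPM in control cells after, 262, 236 and 269 CPM in knockout cells before and 272, 262 and 251 CPM in control cells before. It rose in control cells by 0.32 (edgeR adjusted p = 5.13e-04), was not called in knockout cells at 0.11 (adjusted p = 0.167), and was lower in knockout than in control cells after differentiation by -0.25 (adjusted p = 0.00536). None of its 3 members was called in any comparison.

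The list of 11 assembly factors, which load the core proteins onto the RNA, had no higher call in any comparison. With differentiation 7 of 11 were lower in knockout cells and 5 of 11 in control cells, beside 27.7 percent of all genes lower in knockout cells and 22.3 percent in control cells, and the medians of the list were -0.33 in knockout cells and -0.15 in control cells on the log2 scale. PIH1D1 of the R2TP complex had the lowest adjusted p of the list in both genotypes, with log2 changes of -0.67 in knockout cells (edgeR adjusted p = 7.09e-07) and -0.51 in control cells (adjusted p = 1.92e-05). The nucleolar chaperone NOLC1 changed by -0.63 and the ATPases RUVBL1 and RUVBL2 by -0.54 and -0.38 in knockout cells (edgeR adjusted p = 3.01e-06, 9.19e-06 and 3.37e-04). These calls, and that of ZNHIT6 in knockout cells at -0.37, stood without each library. The remaining stage calls were lost without at least 2 of the 12 libraries each: RPAP3 at -0.33 and ZNHIT3 at -0.28 in knockout cells, and NOLC1 at -0.23, RUVBL1 at -0.22, ZNHIT6 at -0.26 and ZNHIT3 at -0.33 in control cells.

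Between the genotypes, 4 of 11 assembly factors were lower in knockout than in control cells after differentiation and 0 of 11 were called before it (edgeR, 1 at an unadjusted p under 0.05), beside 16.3 percent of all genes lower after differentiation and 17.2 percent called in either direction before it. RPAP3 was lower by -0.51 on the log2 scale (edgeR adjusted p = 7.64e-04), and that call stood without each library. RUVBL2 at -0.25 was lost without knockout after replicate 2 (-0.23), NOLC1 at -0.24 without any of 3 libraries and RUVBL1 at -0.22 without any of 6. The change of RUVBL2 with differentiation differed between the genotypes by -0.42 (edgeR adjusted p = 0.0143), as did those of NOLC1 by -0.39 and RUVBL1 by -0.32 (adjusted p = 0.0238 and 0.0494, lost without any of 4 and of 9 libraries).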

How the data were processed

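Strand-specific total RNA libraries depleted of ribosomal and globin RNA were made for all 12 samples, per the labels' protocols. The deposited values are raw read-pair counts per gene, counted by the authors with featureCounts 1.4.6-p4 over exons of GENCODE 22 on hg38 without strand, multi-overlap or multi-mapping options, per the file headers. The submitters' processing notes name Trimmomatic, FastQC, Subread 1.6.2, featureCounts 1.2.6 and edgeR 3.18.1, and how read pairs that fit several gene copies were placed is not given in the sources used here. Since pairs overlapping exons of several genes were not counted and strand was not used, a snoRNA under another exon loses its pairs and unspliced or antisense RNA across a snoRNA adds to it. Symbols were joined by gene ID to GENCODE release 29 (56753 of 60483 genes matched).

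All 12 libraries entered a single model of 4 group means in edgeR 4.0.16 (R 4.3.3) with TMM factors, filterByExpr (minimum count 10, 17175 genes kept), two-sided quasi-likelihood tests and Benjamini-Hochberg adjustment over all genes tested, called at an adjusted p under 0.05. Standard errors are the log2 change divided by the root of F. CPM are TMM-scaled and unlogged. Nested genes were set against hosts with limma 3.58.1 (trend) on the log2 CPM with a prior count of 2, over 960 pairs; a host is clear when it is the only gene around the member on its strand, or has at least 10 times the counts of the next. Scripts were tested on simulated data. Library totals of 7667997 to 14047498 counts put the median member at 311 counts over all libraries. Alternatives were other scalings, no filter, the groups compared alone, the replicate number as a block, DESeq2 1.42.0, other count minimums and each library left out. Members and lists were chosen with earlier results of these data known. The members named by rule are those with a processing role, the 8 with the largest counts, up to 5 called members per direction without overlap in each comparison, those called in the difference of the changes, the imprinted genes, and their hosts. SNORD8, SNORD9, SNORD12B, SNORD92 and SNORD67 were named after their values were seen, and SNORD11, SNORD11B, SNORD70, SNORD89 and SNORD93 only for a host, an overlap or the count limit. The sequence of 1 described member and the host of another are not reported here.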

Additional observations from a re-analysis of the deposited data

Results flagged for a closer look

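The change with differentiation differed between knockout and control cells in 3 of the 27 host genes, by a test of the difference itself (edgeR), beside 6.28 percent of all genes called higher and 6.68 percent lower. Of the members 0 of 46 passed that test and 2 had an unadjusted p under 0.05, SNORD116-15 at 2.12 and SNORD66 at 1.17 (edgeR adjusted p = 0.0726 and 0.112), with a median standard error of 0.44. For HSPA8 the difference between the knockout effects after and before differentiation was -1.06 on the log2 scale (adjusted p = 7.23e-05): it averaged 1085 CPM in knockout and 1824 CPM in control cells after differentiation, and 2678 CPM in knockout and 2154 CPM in control cells before. For WDR43 it was -0.38 (adjusted p = 0.00479), with 185 CPM in knockout and 223 CPM in control cells after differentiation, and 291 CPM in knockout and 269 CPM in control cells before. For GNL3, a nucleolar GTP-binding protein gene and host of SNORD69 and SNORD19, it was -0.37 (adjusted p = 0.0286), with 157 CPM in knockout and 185 CPM in control cells after differentiation, and 217 CPM in knockout and 197 CPM in control cells before. The GNL3 call was lost without any of 8 libraries (-0.39 to -0.27), and those of HSPA8 and WDR43 stood without each library.

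The same test passed for 2 of 4 core box C/D proteins, 3 of 11 assembly factors and 2 of 6 H/ACA proteins. All of these had negative differences, beside 6.28 percent of all genes called higher and 6.68 percent lower. The RUVBL1 call was lost without any of 9 libraries, with upper-quartile factors and with no filter. The SNU13 and NOLC1 calls were also lost without single libraries. Among box C/D proteins and assembly factors the differences were -0.40 for NOP56 (edgeR adjusted p = 0.00616), -0.39 for SNU13 (0.0271), -0.42 for RUVBL2 (0.0143), -0.39 for NOLC1 (0.0238) and -0.32 for RUVBL1 (0.0494). Among box H/ACA proteins they were -0.55 for GAR1 (edgeR adjusted p = 0.0238) and -0.46 for SHQ1 (0.0423), which were lost without any of 5 and of 11 libraries.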

How the results depend on the processing

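Leaving out each library in turn gave 4 to 16 members higher with differentiation in knockout cells (12 with all libraries) and 0 to 2 lower (1), and 4 to 9 higher (7) and 1 to 6 lower (5) in control cells. The higher count in knockout cells was 5 without knockout before replicate 3, 5 without knockout after replicate 1 and 4 without knockout after replicate 2. The higher count in control cells was 4 without control before replicate 2 or 3 or control after replicate 2, and the lower count was 1 without control after replicate 3, 2 without control before replicate 2 or control after replicate 1 and 3 without control before replicate 1. In knockout against control cells the same procedure gave 0 to 1 higher and 0 to 3 lower after differentiation, and 0 to 1 higher and 0 to 3 lower before it, with 3 lower at either stage without control before replicate 3. The difference of the changes gave 0 to 2 higher, with 2 without control before replicate 3 and 1 without knockout after replicate 3. Relative to the host, the ranges were 3 to 7 higher and 1 to 2 lower in knockout cells, and 1 to 4 higher and 0 to 2 lower in control cells. The 3 higher came without knockout after replicate 2, and the 1 higher in control cells without control before replicate 2 or 3 or control after replicate 1 or 2.

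With library sizes as the only scaling, 4 members were higher and 3 lower with differentiation in knockout cells, 3 were lower in knockout than in control cells after differentiation and 0 were higher before it. That scaling moved the median of all genes to -0.17 between genotypes after differentiation, -0.16 between stages in knockout cells and -0.15 in the difference of the changes. Of all genes called, 27.6% instead of 50.7%, 35.1% instead of 50.3% and 23.1% instead of 48.5% were then higher in these comparisons. DESeq2 called 6 members higher and 0 lower with differentiation in knockout cells, 4 higher and 1 lower in control cells and 0 lower in knockout than in control cells after differentiation. With no filter on low counts, 0 were lower with differentiation in knockout cells, 2 lower in control cells, 3 lower after and 2 lower before differentiation in knockout cells against control cells, and 1 higher in the difference of the changes. With the groups compared alone, 3 were lower in knockout cells after differentiation and 0 higher before it. RLE factors gave 2 lower with differentiation in knockout cells, and a count minimum of 240 gave 0 there and 2 in control cells.

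The labels do not tie same-numbered libraries to each other, and the data give a weak hint only: over 18 pairs of same-numbered libraries, the correlation of their deviations from group means was -0.02 to 0.25, and 10 exceeded 0.1. In each of the 6 pairs of groups the mean was higher for same numbers (0.02 to 0.15) than for different numbers (-0.08 to -0.01), so a shared factor was not shown to be absent. The replicate block gave 3 members lower in knockout than in control cells after differentiation, 1 lower there relative to the host, 1 lower before it, 2 lower with differentiation in knockout cells, 1 higher in the difference of the changes and 11 higher relative to the host with differentiation in knockout cells. The median change of the members moved by less than the spread of 0.274 between libraries in each comparison and setting. That does not show it to be stable. The spread is larger in size than the medians of 0.14 and -0.15 between genotypes after and before differentiation and 0.12 between stages in control cells. Without single libraries the median was -0.09 to 0.35 between genotypes after differentiation and -0.06 to 0.36 between stages in control cells, so that its sign was not fixed there. Of single genes, DKC1 had a log2 change of -0.18 with differentiation in knockout cells with library sizes as the only scaling (edgeR adjusted p = 0.0115), against a change of 0.0 that was not called under TMM. The cause of these movements was not tested. The median member had 311 counts over all libraries, and the median standard error of a member was 0.29 to 0.32 on the log2 scale in comparisons of 2 groups, beside 0.08 for hosts. SNORD17, with 75025 counts, still had a standard error of 0.15 in these comparisons, and what sets the errors was not tested.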

Other observations

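The box H/ACA snoRNAs guide pseudouridylation and were measured in the same libraries. With differentiation, in knockout cells 32 of the 56 SNORA genes tested were higher and 0 lower, beside 28.0 percent of all genes higher, with a median log2 change of 0.76. In control cells 20 were higher and 1 lower, beside 21.5 percent of all genes higher, with a median of 0.52. The medians of the box C/D members were 0.45 in knockout and 0.12 in control cells, and the difference between the classes was not tested. Of 16 scaRNA genes tested, which guide modification of spliceosomal RNAs in Cajal bodies, 11 were higher and 0 lower in knockout cells and 6 higher and 0 lower in control cells, with medians of 0.85 and 0.33. Beside these, 28.0 percent of all genes were higher and 27.7 percent lower in knockout cells, and 21.5 and 22.3 percent in control cells. Together the SNORA genes took 0.218 to 0.324% of counts in knockout cells after differentiation, 0.252 to 0.334% in control cells after, 0.159 to 0.223% in knockout cells before and 0.152 to 0.247% in control cells before. Genes of up to 300 bases other than the members took 6.26 to 7.48%, 5.51 to 6.5%, 4.07 to 5.79% and 4.44 to 5.17% of counts in knockout after, control after, knockout before and control before, and their part in these counts was not tested.

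Of the 6 H/ACA proteins, 2 were lower with differentiation in knockout cells, NHP2 at -0.93 and SHQ1 at -0.72 on the log2 scale (edgeR adjusted p = 5.02e-06 and 1.73e-05), beside 27.7 percent of all genes lower. In control cells NHP2 at -0.53 and SHQ1 at -0.26 were lower and GAR1 at 0.31 and NOP10 at 0.20 were higher. In knockout relative to control cells, SHQ1 at -0.60 and NAF1 at -0.39 were lower and DKC1 at 0.18 was higher after differentiation, and GAR1 at 0.40 and DKC1 at 0.17 were higher before it. The SHQ1 and NHP2 calls stood without each library except SHQ1 in control cells, which was lost without any of 6 (-0.27 to -0.23), and the others were lost without between 2 and 11 libraries. Of 22 noncoding host genes tested, 11 were higher and 4 lower with differentiation in knockout cells and 8 higher and 3 lower in control cells, beside 28.0 percent of all genes higher and 27.7 percent lower in knockout cells and 21.5 and 22.3 percent in control cells.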
